A study of Homo sapiens with 4 samples.

Results

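Condensins, type II topoisomerases and the Ki-67 protein shape chromosomes in dividing cells, and their messenger RNA was higher in tongue squamous cell carcinoma cells kept in high glucose. The genes SMC2, SMC4, NCAPD2, NCAPG, NCAPH, NCAPD3, NCAPG2, TOP2A, TOP2B and MKI67 were taken by symbol from the annotation of the array, and 10 of 10 had probe sets of their own among the 18132 genes tested. Their 36 probe sets were annotated to no other gene. UM1, an established human line from a tongue squamous cell carcinoma, was cultured for 7 days in 5.6 mM glucose (normal glucose, called low in the sample labels) or 16.7 mM glucose (high glucose). Each group had 2 arrays, labelled as biological replicates, and the labels name no other treatment for either group. As a model, the design has 1 cell line and 2 glucose levels, and the arrays read the whole culture.

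Condensins are ring-shaped complexes that fold chromosomes into compact rods for mitosis. Both forms share the ATPases SMC2 and SMC4. Condensin I adds NCAPD2, NCAPG and the ring-closing kleisin NCAPH, while condensin II adds NCAPD3, NCAPG2 and the kleisin NCAPH2. Topoisomerase II cuts both strands of DNA, passes another duplex through the gap and reseals it, which untangles sister chromosomes. Its TOP2A form is made mainly by proliferating cells, whereas TOP2B is also present in cells that do not divide. Ki-67, the product of MKI67, coats mitotic chromosomes and is widely used as a stain for proliferating cells.

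In RefSeq (GRCh38.p14), promoter sequences were found for 10 of the 10 genes, 14 promoters in all, since NCAPD3, SMC2, SMC4 and TOP2B have more than 1 start. Of the 10 genes, 9 had a promoter with the letters TTTGAA on either strand, the core of the cell cycle homology region (CHR) through which many late cell cycle genes are controlled. Counted by promoter this was 9 of 14, and 15.2% of all 35116 promoters of the same 300 bases held the letters. The other CHR form, TTCGAA, was in 0 of the 14. The letters CCAAT, the core of the NF-Y box, were in 6 of the 14 promoters (34.6% of all promoters), and a CHR together with CCAAT in 5 of the 14 (6.38% of all promoters). Letters of the E2F type, TTCCCGC or TTCGCGC or TTGGCGC or TTGCCGC, were searched on both strands and were in 3 of the 14 (13% of all promoters). A match is a string of letters and not a measured site, and the start sites used by UM1 cells were not measured.

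Shown here are the 250 bases before the start of the genes with the largest differences, TOP2A, NCAPG and MKI67, and of TOP2B, which had the smallest one among the 10 genes. They run 5′ to 3′ on the strand of the gene, and capitals mark CHR, CCAAT and E2F-type letters in either orientation. In GRCh38.p14 they lie at chr17:40417897-40418146 (minus strand, TOP2A), chr4:17810729-17810978 (plus strand, NCAPG), chr10:128126424-128126673 (minus strand, MKI67) and chr3:25664908-25665157 (minus strand, TOP2B).
TOP2A: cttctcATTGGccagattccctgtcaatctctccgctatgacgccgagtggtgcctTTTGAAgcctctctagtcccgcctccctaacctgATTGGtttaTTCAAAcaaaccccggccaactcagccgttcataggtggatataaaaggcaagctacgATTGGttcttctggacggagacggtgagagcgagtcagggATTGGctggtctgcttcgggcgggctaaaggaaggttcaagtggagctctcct
NCAPG: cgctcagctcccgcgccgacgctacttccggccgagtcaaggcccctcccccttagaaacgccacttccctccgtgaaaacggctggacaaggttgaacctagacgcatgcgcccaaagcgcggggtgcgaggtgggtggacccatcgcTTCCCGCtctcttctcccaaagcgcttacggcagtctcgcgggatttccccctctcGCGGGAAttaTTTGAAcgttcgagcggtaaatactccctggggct
MKI67: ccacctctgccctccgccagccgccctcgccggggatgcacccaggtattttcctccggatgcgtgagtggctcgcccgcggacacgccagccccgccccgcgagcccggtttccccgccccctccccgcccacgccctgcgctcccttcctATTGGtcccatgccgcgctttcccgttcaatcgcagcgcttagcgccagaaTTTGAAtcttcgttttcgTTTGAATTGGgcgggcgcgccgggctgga
TOP2B: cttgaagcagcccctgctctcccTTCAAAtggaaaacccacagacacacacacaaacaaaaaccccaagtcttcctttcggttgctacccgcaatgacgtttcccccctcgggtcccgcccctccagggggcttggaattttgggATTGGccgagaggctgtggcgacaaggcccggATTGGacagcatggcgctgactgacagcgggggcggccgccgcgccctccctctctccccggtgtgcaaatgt

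In TOP2A the CHR letters began at -194 and, on the other strand, at -151, counted from the start, and CCAAT occurred on the minus strand at -244, -160, -93 and -53. NCAPG had a CHR at -35 and E2F-type letters at -101 and -45, without CCAAT. MKI67 had a CHR at -47 and another at -29, whose final letter is shared with the CCAAT of the minus strand at -24. The printed promoter of TOP2B held these letters too, with a CHR at -227 and CCAAT at -105 and -73. It was printed because it held them, and the other promoter of TOP2B held none of the letters searched. Among the 10 genes the exception without a CHR was NCAPH, which held CCAAT at -112. The letters were therefore present both in genes with large differences and in a promoter of TOP2B, a gene whose difference was small.

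Of the 10 genes, 10 passed an adjusted p of 0.05 with the higher level in high glucose and 0 with the lower one, while 15.5% of all genes tested were called higher and 22.2% lower, 37.7% in either direction (limma, Benjamini-Hochberg adjustment over all genes). Their median log2 difference was 2.29, against -0.033 for all genes. More than 4-fold higher were 7 of the 10, against 2.43% of all genes. At the thresholds of the methods, a fold above 1.5 with an unadjusted p under 0.05, here taken from limma, 9 of the 10 were higher, against 10.6% of all genes. With the methods' t-test after Benjamini-Hochberg adjustment 7 of the 10 were higher, against 7.43% of all genes. The arrays of the groups did not overlap for any of the 10, and 27.5% of all genes were likewise higher without overlap. An array of a whole culture cannot tell more cells with a transcript from more transcript in each cell.

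**Figure D1:**
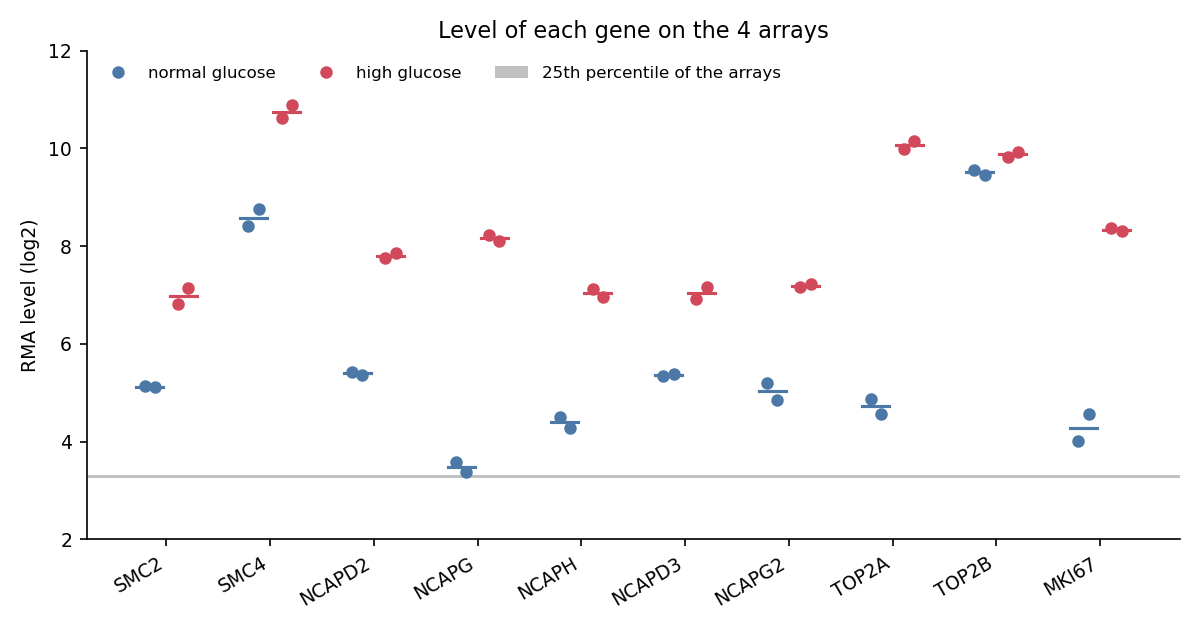
RMA level (log2) of the brightest probe set of each of the 10 genes on the 2 normal glucose (blue) and 2 high glucose (red) arrays, with bars at the group means and a grey band at the 25th percentiles of the arrays. Every red point lies above the blue points of its gene, with the widest gap for TOP2A (4.72 against 10.1) and the narrowest for TOP2B (9.51 against 9.88).

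TOP2A had the largest difference of the 10 genes. Its levels, on the log2 scale of RMA, were 4.88 and 4.57 on the normal glucose arrays and 9.99 and 10.2 on the high glucose arrays. The SD within a group was 0.218 in normal and 0.112 in high glucose, and the groups were far apart. TOP2A was 40.8-fold higher in high glucose (log2 difference 5.35 with an SE of 0.131 over 2 arrays per group, limma adjusted p = 6.41e-06), which ranked 15 of 18132 genes. Its 3 probe sets were 24.2-fold, 40.8-fold and 47.6-fold higher. The 47.6-fold value came from the probe set with the most uneven normal glucose levels (3.58 and 2.74), the lower of which was under the 25th percentile of its array (3.31).

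TOP2B is the paralog that cells make whether or not they divide. Its levels were 9.57 and 9.46 in normal glucose and 9.83 and 9.93 in high glucose. The groups did not overlap, but the gap between them was small. TOP2B was 1.29-fold higher (log2 difference 0.37 with an SE of 0.0931, limma adjusted p = 0.0255), short of the fold threshold of the methods. The call ended on dropping each of the 4 arrays in turn, with adjusted p from limma of 0.0663 without normal glucose replicate 1, 0.129 without normal glucose replicate 2, 0.0752 without high glucose replicate 1 and 0.129 without high glucose replicate 2. The other probe sets of TOP2B gave 1.34-fold and 1.27-fold. Their values were identical on the normal glucose arrays (7.56 and 7.64) but not on the high glucose arrays (7.96 and 8.08 against 7.82 and 8.07), and the 1.27-fold difference did not pass.

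Taken within each array, TOP2A minus TOP2B was -4.69 and -4.89 in normal glucose and 0.16 and 0.22 in high glucose. The change of TOP2A thus exceeded that of TOP2B by 4.98 on the log2 scale, or 31.6 times as a ratio of folds. With 2 arrays per group the two-sided exact permutation test gave p = 0.333, the smallest it allows. The difference stayed between 4.89 and 5.08 with each array dropped in turn.

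MKI67 encodes the Ki-67 coat protein of mitotic chromosomes. Its levels were 4.02 and 4.56 in normal glucose and 8.37 and 8.30 in high glucose. The normal glucose arrays were the less even pair, yet the groups lay far apart. MKI67 was 16.6-fold higher (log2 difference 4.05 with an SE of 0.181, limma adjusted p = 3.56e-05). All 6 of its probe sets were higher, from 9.20-fold to 29.7-fold, the latter with 1 normal glucose array under its 25th percentile. The probe set with the lowest levels lay under the 25th percentile on both normal glucose arrays, and against that floor it was at least 9.90-fold higher.

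Among the condensin subunits, NCAPG of condensin I stood out. Its levels were 3.58 and 3.39 in normal glucose, just above the 25th percentiles of those arrays (3.26 and 3.31), and 8.23 and 8.11 in high glucose. NCAPG was 25.7-fold higher (log2 difference 4.68 with an SE of 0.106, limma adjusted p = 5.56e-06), rank 36 of 18132. Its other probe set lay under the 25th percentile on both normal glucose arrays and was at least 2.21-fold higher. With the mean of both probe sets the log2 difference of NCAPG was 3.28 in place of 4.68.

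The remaining subunits of condensin I rose too, with smaller fitted differences than NCAPG. The kleisin NCAPH had levels of 4.51 and 4.27 in normal glucose and 7.12 and 6.95 in high glucose. Its groups were well apart, and it was 6.26-fold higher (log2 difference 2.65, SE 0.119, adjusted p = 3.71e-05 from limma), whereas the mean of its 3 probe sets gave a log2 difference of 1.09 (adjusted p = 0.000231 from limma). NCAPD2, a scaffold subunit built of HEAT repeats, had levels of 5.43 and 5.37 in normal glucose and 7.76 and 7.85 in high glucose. Its replicates were nearly equal, its probe sets gave 5.30-fold and 5.35-fold, and its log2 difference was 2.41 (SE 0.0882, adjusted p = 1.91e-05 from limma).

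The condensin II subunits rose as well. NCAPG2, the counterpart of NCAPG, had levels of 5.19 and 4.86 in normal glucose and 7.16 and 7.23 in high glucose. It was 4.49-fold higher (log2 difference 2.17, SE 0.129, adjusted p = 9.76e-05 from limma), and the next brightest probe set, whose name does not end in _x_at, gave 4.31-fold. The mean of its 5 probe sets gave a log2 difference of 1.08 (adjusted p = 0.000859 from limma). NCAPD3, the counterpart of NCAPD2, was read by 1 probe set, with levels of 5.35 and 5.38 in normal glucose and 6.91 and 7.17 in high glucose. Its groups did not overlap, and it was 3.20-fold higher (log2 difference 1.68, SE 0.113, adjusted p = 0.000152 from limma).

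NCAPH2, the kleisin of condensin II and outside the 10 genes, differed least among the condensin subunits. Its levels were 6.84 and 6.75 in normal glucose and 7.51 and 7.19 in high glucose. It was 1.47-fold higher (log2 difference 0.56, SE 0.128, adjusted p = 0.0178 from limma), but its other probe set was at 0.928-fold with overlapping arrays. The call ended without normal glucose replicate 1 (adjusted p = 0.0891), normal glucose replicate 2 (0.126) or high glucose replicate 1 (0.0762) in the same limma fit, and with the mean of both probe sets (0.0757).

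SMC2 and SMC4, the ATPases that both complexes use, rose as well. SMC4 had levels of 8.42 and 8.75 in normal glucose and 10.6 and 10.9 in high glucose. It was 4.49-fold higher (log2 difference 2.17, SE 0.152, adjusted p = 0.00018 from limma), and its 4 probe sets ranged only from 4.35-fold to 4.83-fold. SMC2 had levels of 5.13 and 5.11 in normal glucose and 6.81 and 7.15 in high glucose. It was 3.63-fold higher (log2 difference 1.86, SE 0.131, adjusted p = 0.000184 from limma), with 2.95-fold to 4.23-fold over its 7 probe sets.

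**Figure D2:**
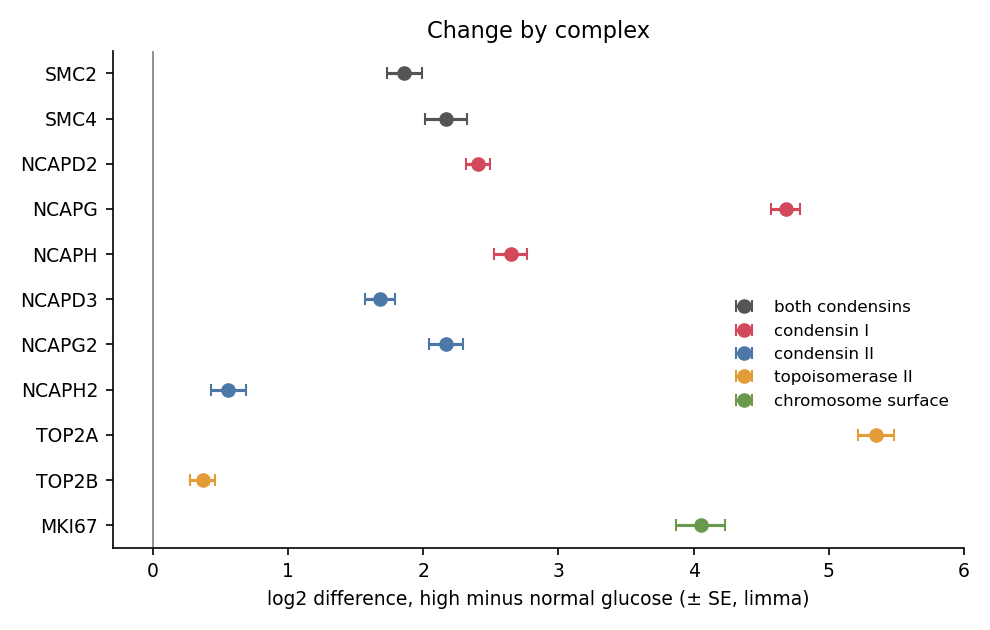
Log2 difference, high minus normal glucose, of the brightest probe set of each gene, with bars of 1 SE from limma (n = 2 arrays per group), coloured by complex. Values run from 0.37 for TOP2B to 5.35 for TOP2A, and NCAPH2 (0.56) lies apart from the other condensin subunits (1.68 to 4.68).

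The condensin I subunits were set against their condensin II counterparts on the same array, a comparison chosen after the values were seen. The log2 difference of NCAPG exceeded that of NCAPG2 by 2.51, that of NCAPH exceeded that of NCAPH2 by 2.09, and that of NCAPD2 exceeded that of NCAPD3 by 0.73. With the mean of the probe sets of each gene these gaps were 2.20, 0.86 and 0.73. The size of the gap of NCAPH over NCAPH2 thus depended on the probe sets read. The mean for NCAPH includes 2 probe sets at or under the 25th percentile in normal glucose, where a change cannot be sized. NCAPG minus NCAPG2 was -1.61 and -1.47 in normal glucose and 1.07 and 0.88 in high glucose. The groups did not overlap for any of the 3 pairs, and with 2 arrays per group the two-sided exact permutation p of each was 0.333, the smallest possible. No adjustment was made over the 4 pairs compared (TOP2A with TOP2B included).

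Among all 36 probe sets of the 10 genes, 30 were higher at an adjusted p under 0.05 from limma over the 44988 probe sets annotated to 1 gene, of which 15.3% were higher, and 0 were lower. The 6 that did not pass belonged to NCAPG2 (3), NCAPH (2) and TOP2B (1). Those of NCAPG2 and NCAPH lay at or under the 25th percentile on both normal glucose arrays. Against that floor 1 of NCAPG2 was at least 1.06-fold higher, 1 of NCAPH at least 1.004-fold, and the other 3 had no bound. The brighter of those of NCAPH was at 2.94 and 3.03 in normal glucose and 3.40 and 3.18 in high glucose, close to the 25th percentiles of the arrays (3.26 to 3.32).

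**Figure D3:**
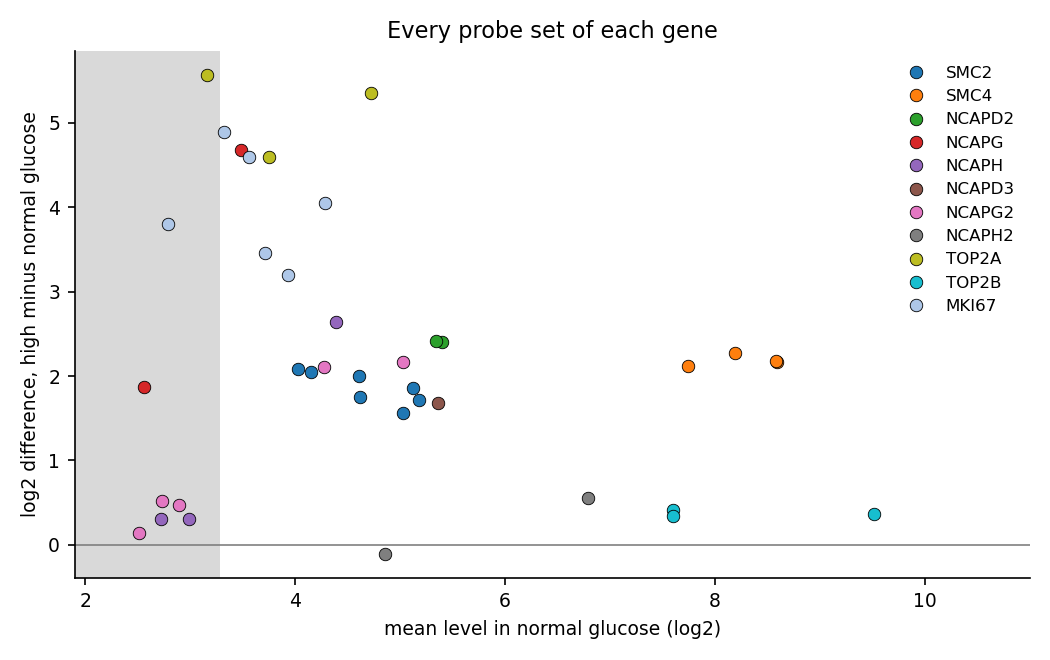
Log2 difference (high minus normal glucose) against the mean level in normal glucose (log2) for every probe set of the 10 genes and of NCAPH2, with the region under the mean 25th percentile of the normal glucose arrays in grey. The probe sets of NCAPH and NCAPG2 that did not pass lie in the grey region, where the plotted difference is not a measured size, those of SMC4 form a tight group from 2.12 to 2.27, and the probe sets of TOP2B lie at 0.34 to 0.42.

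Transcripts of a list of regulators and partners of these factors were mostly higher too. The list also holds spindle genes and was chosen with earlier results of these data known. Of 16 measured regulators and partners, 13 were higher and 2 were lower, against 15.5% and 22.2% of all genes. Their median log2 difference was 3.72 (all genes -0.033). CDK1, the mitotic kinase that phosphorylates condensin, had levels of 4.87 and 5.12 in normal glucose and 9.90 and 9.81 in high glucose. It was 29.1-fold higher (log2 difference 4.86 with an SE of 0.114, limma adjusted p = 5.59e-06), or by a log2 difference of 3.72 with the mean of its probe sets. TPX2, a spindle assembly factor, was 36.9-fold higher, and DLGAP5, which stabilises spindle fibres, at least 36.2-fold. KIF4A, a chromosome kinesin that works with condensin, was named after its values were seen and was 16.1-fold higher. The lower genes, also named after their values were seen, were NIFK, a nucleolar protein that binds Ki-67, lower by a factor of 1.62 (adjusted p = 0.00237 from limma), and CSNK2A1, a subunit of casein kinase, by a factor of 1.55.

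Cohesin is the related ring complex that holds sister chromatids together. Of 16 measured genes, 6 rose, 5 fell (all genes 15.5% higher and 22.2% lower) and the other 5 did not pass, with a median log2 difference of 0.16. The 3 with the largest differences act in dividing cells. CDCA5 (sororin), which protects cohesion, had levels of 3.59 and 3.37 in normal glucose and 7.13 and 7.12 in high glucose and was 12.5-fold higher (adjusted p = 9.67e-06 from limma). ESCO2, a cohesin acetyltransferase of S phase, was at least 9.47-fold higher, and ESPL1 (separase), which cleaves cohesin, 5.06-fold. With the mean of probe sets the log2 differences fell from 3.65 to 2.34 for CDCA5 and from 2.34 to 1.35 for ESPL1. That of ESCO2, 3.24 with the floor at the 25th percentile, was 1.74 with the mean of probe sets, and each of the 3 still passed. The core subunits, named after their values were seen, were SMC3 at 1.05-fold, RAD21 at 1.20-fold and STAG2 at 0.973-fold (adjusted p = 0.626, 0.161 and 0.828 from limma). SMC1A, another core subunit, was 1.34-fold higher. Left out 1 at a time, normal glucose replicate 1, normal glucose replicate 2 and high glucose replicate 2 reduced the 5 lower genes to 3, 2 and 2.

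The SMC5/6 complex, the third SMC complex, which acts in DNA repair, and the other topoisomerases also held both higher and lower genes. Of 9 SMC5/6 genes, 3 were higher and 3 were lower (all genes 15.5% and 22.2%), with a median log2 difference of -0.27. SLF1, a recruitment factor, was 2.48-fold higher, EID3, a subunit gene, was lower by a factor of at least 2.12, and NSMCE3 was lower by a factor of 1.49 (adjusted p = 0.0553 without high glucose replicate 2, from limma). Without normal glucose replicate 1, normal glucose replicate 2 or high glucose replicate 2, 1 was higher, and after median centring 6 were lower. Over all genes, 4483 of 18132 were lower after median centring. Of 9 genes of other topoisomerases and of the repair of their lesions, 3 were higher and 2 were lower, with a median of 0.20. The share of lower genes was thus close to the 22.2% of all genes. TOP1, the main enzyme that relaxes DNA by cutting a single strand, had levels of 10.4 and 10.5 in normal glucose and 9.54 and 9.60 in high glucose. It was lower by a factor of 1.79 (log2 difference -0.84 with an SE of 0.0899, limma adjusted p = 0.000892), whereas TOP2A on the same arrays was higher. TOP1 was read only through probe sets whose names end in _x_at, and without such probe sets 1 gene of its list was lower. RMI1 and RMI2, partners of the BLM helicase, were 2.68-fold and 1.79-fold higher.

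**Figure D4:**
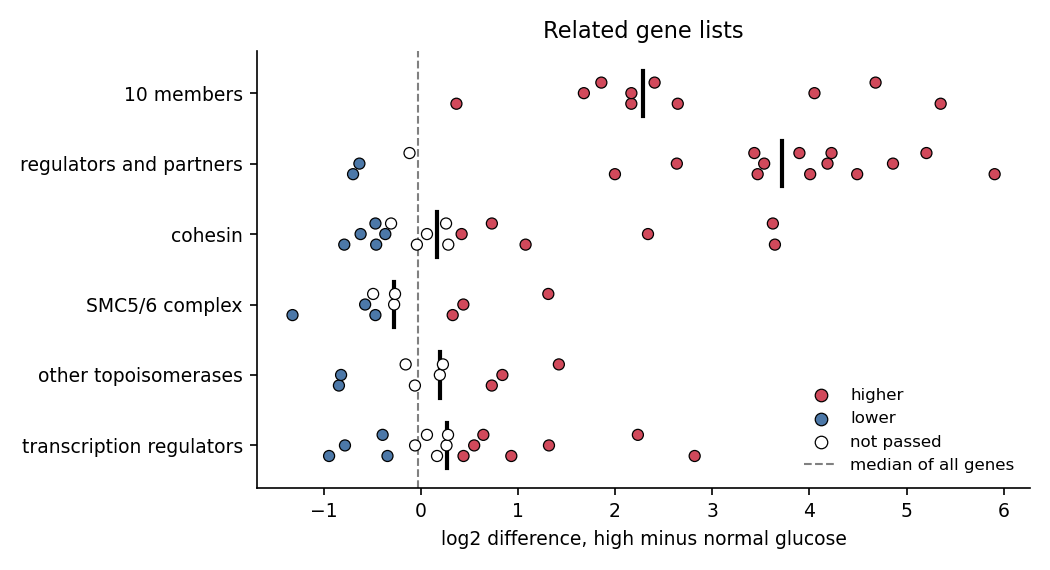
Log2 difference (high minus normal glucose) of each measured gene of the 10 members and of 5 related lists, red where called higher, blue where called lower and white where not passed (limma, adjusted p under 0.05). Thick bars mark list medians, 2.29 for the members and 3.72 for regulators and partners against -0.27 to 0.27 for the other lists, and the dashed line marks the median of all genes (-0.033).

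Transcription factors of late cell cycle genes were read from a list of 16, with a median log2 difference of 0.27. Of these, 7 rose and 4 fell (all genes 15.5% higher and 22.2% lower), and the other 5 did not pass. FOXM1, an activator of mitotic genes, had levels of 4.93 and 4.46 in normal glucose and 7.42 and 7.61 in high glucose and was 7.06-fold higher (log2 difference 2.82 with an SE of 0.173, limma adjusted p = 0.000109). MYBL2, which joins the MuvB core to activate such genes, was 4.71-fold higher, from uneven normal glucose levels of 4.66 and 5.87 (log2 difference 2.24, which was 1.63 without normal glucose replicate 1 and 2.84 without replicate 2). E2F1, an activator of S phase genes, was 2.50-fold higher. The call of MYBL2 ended without high glucose replicate 1 or 2 (adjusted p = 0.0565 and 0.0683 from limma), and that of E2F1 without normal glucose replicate 2 or high glucose replicate 2 (0.0761 and 0.0701). E2F4, a repressor partner in resting cells that was named after its values were seen, was lower by a factor of 1.72 (adjusted p = 0.00104 from limma). The 7 higher genes became 4 without normal glucose replicate 2, 3 without high glucose replicate 1 and 2 without high glucose replicate 2. The 4 lower ones became 2 without either normal glucose replicate and 1 without either high glucose replicate.

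Over the probe sets, which are no replicates of each other, Pearson's r was 0.996 or 0.997 within a group and 0.946 between groups. The squamous and epithelial markers, 7 of them measured, held 4 higher and 2 lower genes (all genes 15.5% higher and 22.2% lower). KRT15 had the largest difference of the 7, with mean levels of 6.54 in normal glucose and 11.5 in high glucose. KRT5 and KRT14, which define basal squamous cells, had mean levels of 9.94 and 9.65 in normal glucose and 13.9 and 13.7 in high glucose. KRT14 was read only through probe sets whose names end in _x_at. Without such probe sets 3 markers were higher and 1 was lower. The 2 lower genes, named after their values were seen, were EPCAM, an adhesion protein of simple epithelia, by a factor of 8.99 (11.03 and 11.28 against 7.75 and 8.22), and KRT18, a keratin of simple epithelia, by a factor of 4.64 (11.8 and 11.7 against 9.66 and 9.44). KRT8, also a keratin of simple epithelia, did not pass (9.47 and 9.49 against 9.68 and 9.73, limma adjusted p = 0.0858). CDH1, another of the markers, was 1.42-fold higher. The summed linear level of the 7 markers, which adds genes that rose and genes that fell, was 9214 and 9221 in normal glucose and 34310 and 35380 in high glucose. Of 12 markers of fibroblasts, blood, endothelium and muscle, 2 were higher (all genes 15.5%) and 10 did not pass. COL1A1 was higher by a log2 difference of 2.55, or 1.17 with the mean of probe sets. COL1A2 was at least 1.62-fold higher, with a log2 difference of 0.52 for the mean of probe sets. The summed linear level of the 12 was 319 and 327 in normal glucose and 560 and 535 in high glucose, and LUM, PTPRC and CD3D lay under the 25th percentile on every array. In the actin control, the log2 level at the 3′ end minus that at the 5′ end was 0.71 and 0.74 in normal glucose but 0.35 and 0.42 in high glucose. In the GAPDH control it was 0.24 and 0.13 in normal glucose and 0.08 and 0.12 in high glucose. The marker and actin values moved with the glucose groups, and their part in the differences of the 10 genes was not tested.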

How the data were processed

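UM1 cells in normal glucose (2 arrays) and high glucose (2 arrays) were profiled on Affymetrix arrays. The values deposited by the authors are log2 levels per probe set, for which the submitters' processing notes name GCOS and RMA, a method that subtracts background and normalises arrays to each other. No version is stated in the sources used here. The identifiers are those of the PrimeView array, although the methods give U133 Plus 2.0 as the type. The table held 49395 probe sets, with a single annotated gene for 44988 of them, several genes for 1832, none listed here for 2473, and 102 controls that were left out. Symbols were updated through the GRCh38.p14 gene table. Each gene was read through its brightest probe set by the mean of all 4 arrays.

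The groups were compared with limma 3.58.1 (lmFit, eBayes) in R 4.3.3, with Benjamini-Hochberg adjustment over 18132 genes and a threshold of 0.05, two-sided. The p-values set each difference against the spread between these arrays, which limma moderates with the spread over all genes. The number of arrays limits the precision. A group whose arrays were all at or below their 25th percentiles was set to those percentiles, and its fold is printed with "at least". Same-numbered arrays did not deviate together (correlation -0.005 over genes). The procedure was tested on simulated data. Sequences are from RefSeq. Python 3.11.15, pandas 2.3.3 and matplotlib 3.10.9 were used for tables and plots.

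The members and lists were chosen with earlier results of these data known. Named genes are the 10 members, NCAPH2 and, in each related list, up to 3 called genes with the largest difference. Protein sequences were not used here. Of the listed genes, PTTG1, MCPH1, TP63, KRT6A and KRT17 were not analysed here. Alternatives were other normalisations, probe set summaries, filters, floors, variance models, thresholds, the methods' t-test, a replicate block and each array left out.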

Additional observations from a re-analysis of the deposited data

How the results depend on the processing

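Of 140 refitted values of the 10 genes under 14 alternatives, 132 kept direction and call, 8 lost the call and 0 reversed. Many of these alternatives could not reverse a direction. The dim filter, the floor, the variance model, the t-test, the replicate block and separate testing of probe sets left the 10 differences unchanged. The dim filter used the mean level over the arrays of both groups, so a gene dim in normal glucose could pass through its high glucose arrays. NCAPG was kept with mean levels of 3.49 in normal and 8.17 in high glucose, and TOP2A with 4.72 and 10.1. For members with low normal glucose levels, a call kept under this filter is therefore no independent check. Median centring moved them all by the same amount, and leaving out _x_at probe sets changed only that of NCAPG2. With the methods' t-test after Benjamini-Hochberg adjustment, 7 of the 10 were called higher (7.43% of all genes), with adjusted p of 0.0506 for SMC2, 0.0545 for SMC4 and 0.116 for TOP2B. The other losses were of TOP2B, without each array and with the replicate block (adjusted p = 0.0622 from limma). With the replicate block, 2529 genes were higher and 3592 lower, against 2808 and 4023 without it. Over all genes, the methods' t-test gave 1347 higher and 1667 lower calls, and the thresholds of the methods, applied to the unadjusted p of limma, gave 2433 lower genes. Without 1 array, the adjusted p from limma of the members other than TOP2B stayed between 0.00158 and 0.00956. EID3, NSMCE3, RMI1, RMI2, MYBL2, E2F1, NCAPH2 and COL1A2 also lost their calls under the methods' t-test. With dim genes left out, which removes genes below the median level, 3 cohesin genes and 8 regulators and partners were higher. Over all genes, 2414 of 9066 were higher under this filter. The number of genes that each list kept is not given here, so these counts cannot be read as shares. Listed genes dim in normal glucose could likewise pass this filter through their high glucose arrays. The mean of probe sets moved the differences of NCAPG, NCAPG2, NCAPH and NCAPH2 as given beside them. It gave 5 higher markers of other cell types, with 2966 of 18132 genes higher. The SMC5/6 genes called lower were 5 with the mean of probe sets or without dim genes. They were 6 with a floor at the 25th percentile or the robust trend. Over all genes, 4159 of 18132 were lower with the mean of probe sets and 3972 of 9066 without dim genes. With the floor it was 4318 of 18132, and with the robust trend 4408 of 18132. Under the 25th percentile a change cannot be sized, as for the dim probe sets of NCAPH and NCAPG2.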
